A study of Mus musculus with 2 samples.

Results

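The oxidative phosphorylation genes are the 106 of 31053 gene rows whose symbols name subunits of the respiratory chain complexes or of the ATP synthase, or assembly factors of complex I. Of these, 93 are nuclear genes and 13 are encoded by the mitochondrial genome. They were chosen by symbol: mt-Nd, mt-Co, mt-Atp and mt-Cyt for the mitochondrial genome, and Nduf, Uqcr, Atp5, Cox4 to Cox8 and Sdha to Sdhd for the nucleus. Complexes follow the symbols, so Ndufa4, now known as a complex IV subunit, stands with complex I. The nuclear members are 38 complex I genes, 8 complex I assembly factors, 4 complex II genes, 8 complex III genes, 18 complex IV genes and 17 ATP synthase genes. The 13 mitochondrially encoded members belong to complex I (7), complex III (1), complex IV (3) and the ATP synthase (2). All 106 gene IDs were found in GENCODE vM21 (GRCm38), where the nuclear members lie on 19 chromosomes, with 3 on the X.

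They were read in single-cell RNA libraries of bone marrow from aged C57BL/6J mice that had been given the gut microbiota of young donors (FMT-young) or of aged donors (FMT-aged). There was 1 library in each group, so every difference between the groups below compares 1 library with the other, without a replicate check or a test. Each library was a sorted mix, in which 1 part was whole marrow, 1 part was lineage-negative marrow and 4 parts were lineage-negative cells with Kit on the surface, so class sizes reflect the mix. The recipients' exact age, sex and number are not given in the labels, and no group without a transfer was analysed here.

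Oxidative phosphorylation passes electrons from NADH through complex I, or from succinate through complex II, by way of complex III to oxygen at complex IV, and the proton gradient built on the way drives the ATP synthase. The core subunits of complexes I, III and IV and a pair of ATP synthase subunits are made inside the organelle from its own genome, while complex II and all remaining subunits are made from nuclear transcripts and imported. In the blood system, quiescent stem cells are known for relying little on mitochondrial respiration, and progenitors that divide and differentiate are known for using it more. The transcripts were counted as UMIs from the 3' end, so a count does not grow with gene length as a read count would. Levels are given as a share of all UMIs of a class or as UMIs in 1000000 UMIs of the class (CPM). Ratios are log2, with 95% intervals that cover counting error only.

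Nuclear members are scattered over the genome, and some hold promoter motifs for factors known to drive respiratory genes, among them NRF1. Of the 76 members with a promoter in the RefSeq table (GRCm38.p6), 5 (6.58%) held the palindromic NRF1 motif in the 250 bases before the start. It was found in 0.877% of the same windows of all 27025 genes. The ETS motif CCGGAAG, searched on both strands, was found in 14 members (18.4%) and in 7.83% of all genes, and the YY1 motif, also on both strands, in 1 member (1.32%) and in 0.359% of all genes. The first 5 windows are shown for the NRF1 motif, since these members are followed below, and the last, one of 2 listed for Atp5j, for the YY1 motif. Capitals mark all matches and so give the letters searched, with an ETS match in reverse form as the second run of Cox6a1.
Atp5g2 (chr15:102671048-102671297, - strand): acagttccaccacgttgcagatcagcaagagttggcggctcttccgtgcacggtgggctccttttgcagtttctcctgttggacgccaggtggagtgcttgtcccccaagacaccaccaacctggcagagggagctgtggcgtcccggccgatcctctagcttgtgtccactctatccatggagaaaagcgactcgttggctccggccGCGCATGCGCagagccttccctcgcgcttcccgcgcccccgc
Atp5k (chr5:108434400-108434649, - strand): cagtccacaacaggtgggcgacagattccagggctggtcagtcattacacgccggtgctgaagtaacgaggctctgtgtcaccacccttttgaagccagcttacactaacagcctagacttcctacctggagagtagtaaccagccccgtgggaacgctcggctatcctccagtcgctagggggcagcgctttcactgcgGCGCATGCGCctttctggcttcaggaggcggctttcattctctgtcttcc
Cox6a1 (chr5:115348959-115349208, - strand): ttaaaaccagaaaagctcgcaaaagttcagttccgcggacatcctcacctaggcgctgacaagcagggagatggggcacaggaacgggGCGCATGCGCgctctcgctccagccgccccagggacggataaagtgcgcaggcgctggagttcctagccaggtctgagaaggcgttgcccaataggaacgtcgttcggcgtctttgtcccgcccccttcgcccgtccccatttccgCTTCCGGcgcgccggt
Ndufa11 (chr17:56717512-56717761, + strand): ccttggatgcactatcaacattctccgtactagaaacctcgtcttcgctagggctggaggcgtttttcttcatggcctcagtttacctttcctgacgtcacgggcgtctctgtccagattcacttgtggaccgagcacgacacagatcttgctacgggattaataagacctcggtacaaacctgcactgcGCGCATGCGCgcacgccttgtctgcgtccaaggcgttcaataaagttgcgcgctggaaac
Ndufaf4 (chr4:24897833-24898082, + strand): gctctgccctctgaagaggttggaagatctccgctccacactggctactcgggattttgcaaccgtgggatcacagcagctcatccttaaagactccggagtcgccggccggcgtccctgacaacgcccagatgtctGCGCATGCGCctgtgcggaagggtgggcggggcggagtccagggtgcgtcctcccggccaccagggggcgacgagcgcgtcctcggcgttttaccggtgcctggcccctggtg
Atp5j (chr16:84834977-84835226, - strand): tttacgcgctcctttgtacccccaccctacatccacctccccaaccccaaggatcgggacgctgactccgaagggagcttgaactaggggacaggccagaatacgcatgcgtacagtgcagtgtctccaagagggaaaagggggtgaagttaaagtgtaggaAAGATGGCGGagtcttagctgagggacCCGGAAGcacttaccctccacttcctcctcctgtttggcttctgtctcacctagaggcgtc
A match is a run of letters and not a shown binding site.

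The libraries held 214982156 UMIs (FMT-young) and 207642851 UMIs (FMT-aged). A barcode counted as a cell if it reached 1000 UMIs and 500 genes and if mt- genes made up no more than 10% of its UMIs. This called 11932 FMT-young and 11351 FMT-aged cells, of which 10793 and 10320 remained after removal of the highest doublet scores, with medians of 10832 and 11310.5 UMIs. The 2 libraries shared 34 called barcodes, where 19.9 would be shared if each were drawn at random from the kit's list. The mitochondrial limit removed 12.5% of FMT-young and 16.7% of FMT-aged barcodes that passed the other limits, so it also cuts the range of the mitochondrially encoded members. The libraries differed throughout in other RNA. In HSC-like cells the log2 ratio of FMT-young over FMT-aged was 0.82 for Malat1, a nuclear noncoding RNA, and the 3 genes linked to ribosomal RNA (Gm42418, AY036118 and Lars2) made up 0.242% in FMT-young and 0.618% in FMT-aged. All 23 dissociation stress genes with at least 100 UMIs over both libraries were higher in FMT-young there, with a median log2 ratio of 1.04. The part of these differences in the results on FMT-young against FMT-aged was not tested.

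Cell classes came from clusters that were built without the 106 members, so that no class is defined by them. A class is called X-like from its markers. The HSC-like class, of 658 FMT-young and 947 FMT-aged cells, had Mecom and Hlf among its leading genes and carries no sort gate. The macrophage-like class was led by C1qa, C1qb and C1qc, but also by Cd300e, Fabp4 and Ace. In the plasma-like class 1 cluster held 894 FMT-young and 3 FMT-aged cells, and another held 4 FMT-young and 319 FMT-aged cells. In the basophil, eosinophil or mast-like class 1 cluster held 4 FMT-young and 54 FMT-aged cells. Values of these classes between the libraries therefore set different clusters side by side.

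Nuclear and mitochondrially encoded transcripts were ordered differently over the 17 classes with at least 50 cells in each library. Nuclear members were highest in monocyte progenitor-like cells, at 2.79% of UMIs in FMT-young and 3.01% in FMT-aged, and in GMP-like cells, the granulocyte-monocyte progenitors, at 2.64% in FMT-young and 2.92% in FMT-aged. They were lowest in plasma-like cells (0.775% in FMT-young and 0.872% in FMT-aged) and neutrophil-like cells (0.925% in FMT-young and 0.931% in FMT-aged). In plasma-like cells immunoglobulin genes took 61.5% of UMIs in FMT-young and 60.3% in FMT-aged, which lowers every other share. Among UMIs outside immunoglobulin and mitochondrially encoded genes, nuclear members were 2.11% in FMT-young and 2.32% in FMT-aged plasma-like cells, above HSC-like cells (1.77% in FMT-young and 2.01% in FMT-aged), and neutrophil-like cells were lowest. Mitochondrially encoded members were highest in mature B-like cells, at 4.90% in FMT-young and 5.63% in FMT-aged. They were at 3.98% in FMT-young and 4.19% in FMT-aged in plasmacytoid dendritic-like cells. They were lowest in the neutrophil progenitor-like class (1.48% in FMT-young and 1.65% in FMT-aged) and in the neutrophil-like class (1.56% in FMT-young and 1.5% in FMT-aged).

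**Figure D1:**
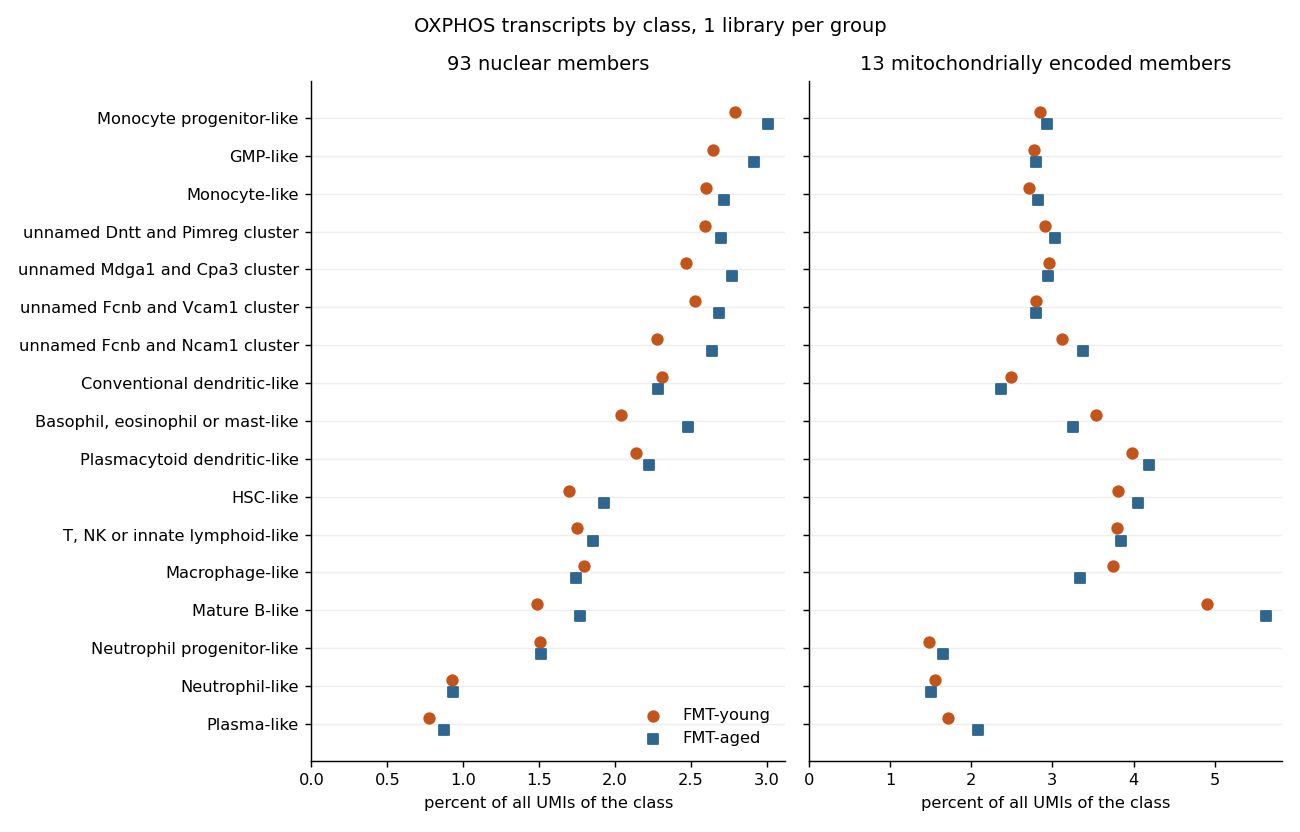
Summed UMIs of the 93 nuclear members (left) and of the 13 mitochondrially encoded members (right) as a percent of all UMIs of each class (x axes), for FMT-young (circles, above) and FMT-aged (squares, below). Classes run down the page from the highest to the lowest nuclear share. The monocyte progenitor-like and GMP-like classes lead on the left, and the mature B-like class on the right.

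The balance of both genomes differed between classes. Nuclear UMIs were 0.979 times the mitochondrially encoded UMIs in FMT-young and 1.02 times in FMT-aged in monocyte progenitor-like cells, and 0.952 and 1.04 times in GMP-like cells of FMT-young and FMT-aged. Within the GMP-like class a shallow cluster, with Elane and Prtn3 among its leading genes, had 1.58 in FMT-young and 0.944 in FMT-aged. Its mitochondrially encoded share was 1.74% in FMT-young and 3.11% in FMT-aged. The other GMP-like clusters had shares of 2.89% and 2.78% in FMT-young and 2.85% and 2.71% in FMT-aged. In HSC-like cells the ratio of nuclear to mitochondrially encoded UMIs was 0.445 in FMT-young and 0.476 in FMT-aged. The T, NK or innate lymphoid-like class had 0.461 in FMT-young and 0.483 in FMT-aged, and mature B-like cells 0.304 in FMT-young and 0.314 in FMT-aged. The macrophage-like class had 0.480 in FMT-young and 0.522 in FMT-aged. The gap between HSC-like and GMP-like cells narrowed among cells of 5000 to 15000 UMIs. In that range the HSC-like class of FMT-young had nuclear members at 1.65% and mitochondrially encoded members at 3.74% of all UMIs, and its GMP-like class had them at 2.40% and 4.26%. The HSC-like class of FMT-aged had 1.84% and 4.08%, and its GMP-like class 2.76% and 3.84%. Across the 17 classes the Pearson correlation of the nuclear with the mitochondrially encoded CPM, on a log2(CPM + 1) scale, was 0.444 in FMT-young and 0.441 in FMT-aged. These points share a library, and a share of UMIs in one group of genes lowers all others.

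HSC-like cells had fewer nuclear OXPHOS transcripts than GMP-like cells in both libraries. The nuclear sum in FMT-young was 1.70% of UMIs for HSC-like and 2.64% for GMP-like cells, a log2 ratio of -0.64 (-0.65 to -0.63). In FMT-aged it was 1.93% for HSC-like and 2.92% for GMP-like cells, a ratio of -0.60 (-0.61 to -0.59). Of 86 nuclear members with at least 100 UMIs in each library, 64 were lower in HSC-like cells by a log2 ratio of more than 0.32 in both libraries, while 21.1% of all 10224 genes were. This limit, 0.32 on the log2 scale, is used for every count below and is called the fold limit. In the other direction 2 of the 86 nuclear members were past it, against 39.3% of all genes, whose median ratio was 0.16 in FMT-young and 0.23 in FMT-aged. The share of lower members was thus above this background. TMM scaling, which centres ratios on the bulk of genes, lowers every HSC-like over GMP-like ratio given here by 0.43 in FMT-young and 0.46 in FMT-aged.

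**Figure D2:**
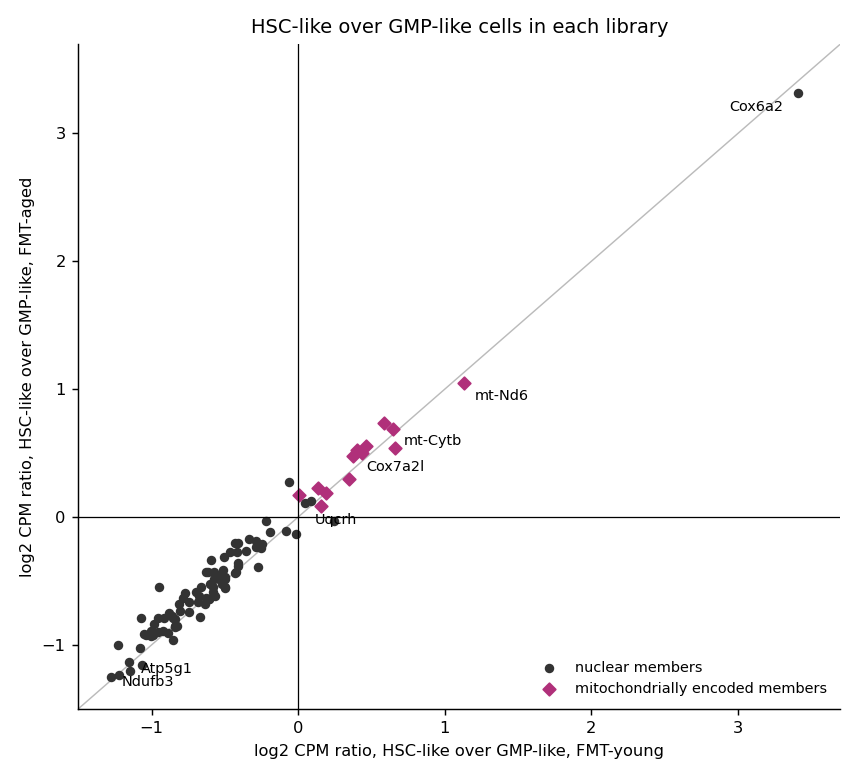
Log2 CPM ratio of HSC-like over GMP-like cells for each member with at least 100 UMIs in both libraries, in FMT-young (x axis) and in FMT-aged (y axis). Dots are nuclear members, diamonds are mitochondrially encoded members, and the grey line marks equal ratios. Most nuclear members lie in the lower left, Cox6a2 and Cox7a2l lie at the upper right with the mitochondrially encoded members, and both libraries order the members alike.

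Each nuclear complex showed this difference. In complex I, which takes electrons from NADH, 28 of 37 members were past the fold limit lower. The accessory subunit Ndufb3 had 124 CPM in HSC-like and 301 CPM in GMP-like cells of FMT-young, and 141 CPM in HSC-like and 334 CPM in GMP-like cells of FMT-aged, a mean log2 ratio of -1.26. Ndufb7, another accessory subunit, had a mean ratio of -1.12 and Ndufa1, an X-linked subunit, -1.05. The core subunits of the arm that reaches into the matrix were less far apart, with -0.31 for Ndufs1 and -0.32 for Ndufs3. Of the complex I assembly factors, 4 of 8 were past the fold limit lower, and Ndufaf4 had a mean ratio of 0.11.

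Complex II, the succinate dehydrogenase shared with the tricarboxylic acid cycle, had 2 of 4 members past the fold limit lower. The membrane anchors Sdhc and Sdhd had mean log2 ratios of -0.53 and -0.93. The catalytic subunits Sdha and Sdhb, at -0.13 and -0.07, were close to equal in HSC-like and GMP-like cells. In complex III, 6 of 8 members were past the fold limit lower, with Uqcrq at -1.11, while the hinge protein gene Uqcrh had a mean ratio of 0.11. In complex IV, the oxygen-reducing complex, 11 of 13 were, with Cox7a2 at -1.23 and Cox5a at -1.14. In the ATP synthase, 13 of 16 were, with Atp5g1 at -1.18. The 5 genes with an NRF1 motif had mean ratios of -0.91 (Atp5k), -0.91 (Cox6a1), -0.84 (Ndufa11), -0.15 (Atp5g2) and 0.11 (Ndufaf4).

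The 2 nuclear members past the fold limit higher in HSC-like cells are both alternative complex IV subunits. Cox7a2l, which takes part in joining complexes III and IV and of which C57BL/6 strains carry a shorter form, had 320 CPM in HSC-like and 242 CPM in GMP-like cells of FMT-young. In FMT-aged it had 346 CPM in HSC-like and 243 CPM in GMP-like cells. Cox6a2, known as the heart and muscle form of Cox6a, had 12.9 CPM in HSC-like and 1.21 CPM in GMP-like cells of FMT-young, from 68 and 51 UMIs. In FMT-aged it had 19.9 CPM in HSC-like and 1.99 CPM in GMP-like cells, from 163 and 88 UMIs. The count asked for the same direction in both libraries, so their agreement follows from the rule. TMM scaling lowers the ratios of both genes by 0.43 in FMT-young and 0.46 in FMT-aged.

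Mitochondrially encoded members were higher in HSC-like cells as a share of all UMIs, but not in both libraries within a common range of depth. Their sum in FMT-young was 3.81% of UMIs for HSC-like and 2.78% for GMP-like cells, a log2 ratio of 0.45 (0.45 to 0.46). In FMT-aged it was 4.05% for HSC-like and 2.80% for GMP-like cells, a ratio of 0.54 (0.53 to 0.54). Of the 13 members, 8 were past the fold limit higher in both libraries and 0 lower, with a range of mean ratios from 0.09 for mt-Atp8 to 1.09 for mt-Nd6. HSC-like cells were shallower, with medians of 7191 UMIs in FMT-young and 7718 in FMT-aged, against 20492 and 24839 in GMP-like cells of FMT-young and FMT-aged. Among cells of 5000 to 15000 UMIs the mitochondrially encoded ratio was -0.19 in FMT-young and 0.09 in FMT-aged, and 0 of 12 members were past the fold limit higher in both libraries. With TMM scaling its mean over both libraries was 0.05. Depth was not equal within this range. The HSC-like median of 7884.5 UMIs in FMT-young lay below the GMP-like one, while in FMT-aged it was 8102 for HSC-like and 6839 for GMP-like cells. In the narrower range of 5000 to 10000 UMIs the share was 3.82% for HSC-like and 3.03% for GMP-like cells of FMT-young, and 4.22% for HSC-like and 3.11% for GMP-like cells of FMT-aged. At 10000 to 15000 UMIs it was 3.57% for HSC-like and 4.96% for GMP-like cells of FMT-young, and 3.86% for HSC-like and 4.67% for GMP-like cells of FMT-aged. The sign thus differed between ranges of depth, and the size depended on scaling. The GMP-like clusters, which differ in depth and in mitochondrially encoded share, were not separated within these ranges.

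The nuclear difference held within a common range of depth. Among cells of 5000 to 15000 UMIs, 466 HSC-like and 189 GMP-like cells of FMT-young gave a nuclear ratio of -0.55 (-0.56 to -0.53). In FMT-aged, 662 HSC-like and 183 GMP-like cells gave -0.59 (-0.60 to -0.57). The GMP-like class joins deep clusters, with medians from 23919 to 33959 UMIs, and a shallow one, with medians of 2063 in FMT-young and 3181 in FMT-aged. Its cells in this range lie between those depths and may not be typical of the class. The nuclear share was lower in HSC-like cells in both narrower ranges too. At 5000 to 10000 UMIs the share was 1.55% for HSC-like and 2.56% for GMP-like cells of FMT-young, and 1.74% for HSC-like and 2.85% for GMP-like cells of FMT-aged. Over the whole range 53 of 80 nuclear members were past the fold limit lower in both libraries, against 17.7% of all genes. Within the HSC-like class the nuclear share was larger in deeper cells. It was 1.43% in cells of 2000 to 5000 UMIs and 2.13% in cells of 15000 to 20000 UMIs in FMT-young, and 1.58% and 2.31% in the same ranges in FMT-aged. The mitochondrially encoded share went the other way in these ranges, with 4.47% and 3.54% in FMT-young and 5.47% and 3.32% in FMT-aged. GMP-like cells had no such order, with nuclear shares between 2.31% and 2.82% in FMT-young and between 2.66% and 2.94% in FMT-aged. Dissociation stress genes made up less of the deeper HSC-like cells. Their share was 3.81% at 2000 to 5000 UMIs and 1.80% at 15000 to 20000 UMIs in FMT-young. In FMT-aged it was 1.74% and 1.04% in the same ranges, and its part in the order by depth was not tested.

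**Figure D3:**
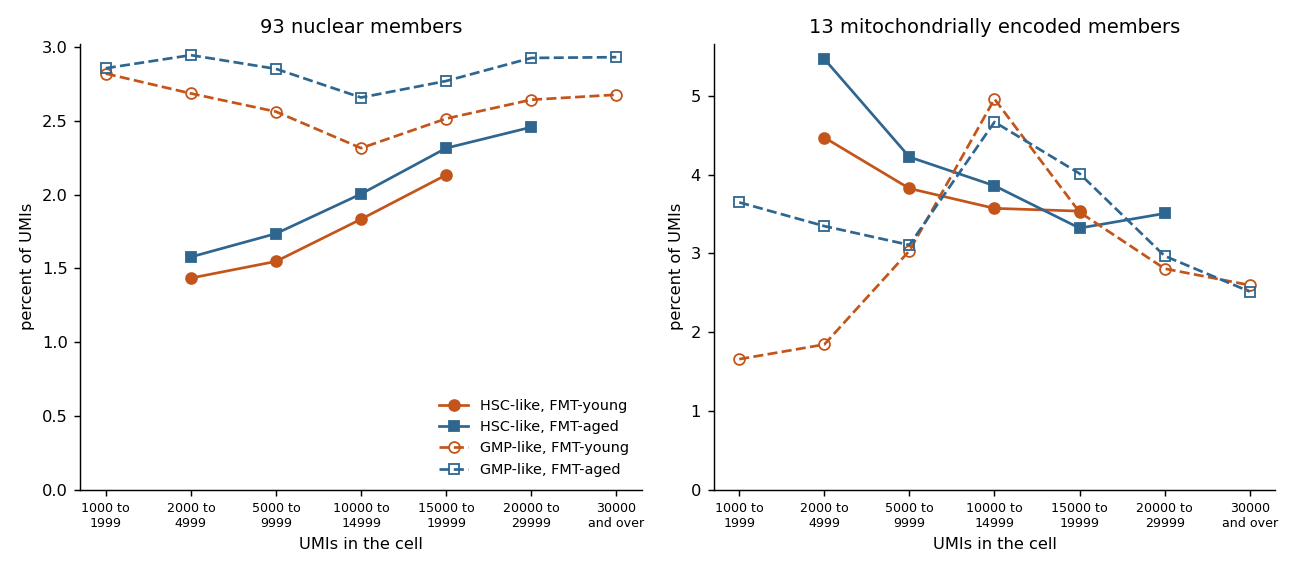
Nuclear members (left) and mitochondrially encoded members (right) as a percent of UMIs (y axes), by the number of UMIs in the cell (x axis), in HSC-like cells (filled, solid) and GMP-like cells (open, dashed) of FMT-young (circles) and FMT-aged (squares). Points need 10 cells. HSC-like cells lie below GMP-like cells at every depth on the left, while the classes cross on the right.

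Single HSC-like cells had the same order of nuclear and mitochondrially encoded shares by depth. In HSC-like cells the Spearman correlation of the nuclear share with the cell's UMIs was 0.46 in FMT-young and 0.52 in FMT-aged. That of the mitochondrially encoded share with UMIs was -0.27 in FMT-young and -0.44 in FMT-aged. The 2 shares had a correlation of -0.30 in FMT-young and -0.31 in FMT-aged over 658 and 947 cells of 1 library each, which share depth and compete for the same UMIs. From the 10th to the 90th percentile of HSC-like cells, nuclear members made up 1.16 to 2.09% in FMT-young and 1.31 to 2.42% in FMT-aged.

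Genes around the chain were read from fixed lists in the same contrast, in which 21.1% of all genes were lower and 39.3% higher past the fold limit. Of the 77 mitochondrial ribosomal protein genes, which serve translation inside the organelle, 54 were past the fold limit lower in HSC-like than in GMP-like cells in both libraries and 2 higher. Of the 20 genes of the tricarboxylic acid cycle and pyruvate dehydrogenase, 10 were lower and 0 higher. The 21 genes that transcribe and maintain the mitochondrial genome or regulate nuclear respiratory genes had 3 lower and 5 higher. Their median ratios, 0.19 in FMT-young and 0.17 in FMT-aged, were near those of all genes. The dissociation stress genes were higher in HSC-like cells for 19 of 23, with medians of 2.05 in FMT-young and 1.84 in FMT-aged, and their part in these ratios was not tested.

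Against monocyte progenitor-like cells the HSC-like nuclear ratio was -0.72 in FMT-young and -0.64 in FMT-aged. Of 87 members 74 were past the fold limit lower and 3 higher, beside 22.9% and 37.3% of all genes. The neutrophil line had lower levels again. Nuclear members were 1.51% of UMIs in neutrophil progenitor-like cells of both libraries, against 2.64% in GMP-like cells of FMT-young and 2.92% in those of FMT-aged. That is a log2 ratio of -0.81 in FMT-young and -0.95 in FMT-aged, with 75 of 85 members past the fold limit lower and 0 higher, beside 55.5% and 16.4% of all genes. All 13 mitochondrially encoded members were past it too. From neutrophil progenitor-like to neutrophil-like cells only the nuclear sum was lower in both libraries, with ratios of neutrophil-like over progenitor-like cells of -0.71 in FMT-young and -0.70 in FMT-aged. There 64 of 77 nuclear members were past the fold limit lower and 0 higher, beside 40.6% and 25.8% of all genes, while the mitochondrially encoded ratio was 0.08 in FMT-young and -0.14 in FMT-aged. In the monocyte line the step was small, with nuclear ratios of monocyte-like over monocyte progenitor-like cells of -0.10 in FMT-young and -0.15 in FMT-aged. There 22 of 87 nuclear members were lower past the fold limit and 5 higher, beside 30.4% and 25.8% of all genes, so the share of lower members was near the background.

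Between the groups, HSC-like cells of FMT-young had slightly fewer nuclear OXPHOS transcripts than those of FMT-aged. The nuclear sum was 16955 CPM in FMT-young and 19271 CPM in FMT-aged, a log2 ratio of -0.18 (-0.20 to -0.17). Of 85 nuclear members with at least 100 UMIs over both libraries, 80 were lower and 5 higher in FMT-young, with a median of -0.23. The median of all 9076 genes was -0.12, so most genes of all were lower too. Past the fold limit, 20 nuclear members were lower, beside 18.7% of all genes, and 0 were higher, beside 6.9% of all genes. The share of members past the limit, 20 of 85, was thus near the background. TMM scaling raises every ratio of FMT-young over FMT-aged in HSC-like cells by 0.10, which leaves the nuclear sum at -0.09 and 6 members past the limit. With each library clustered on its own the sum was at -0.29 and 43 members were past the limit, so the count depends on how the class is drawn. In each depth range of the HSC-like class from 2000 to 20000 UMIs the nuclear share was lower in FMT-young. The share of dissociation stress genes was higher in FMT-young in each of these ranges.

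Complex I had the most members past the fold limit in HSC-like cells, 13 of 37, all lower in FMT-young, and its sum had a ratio of -0.25 (-0.27 to -0.22). Ndufs3, a core subunit, had 64.2 CPM in FMT-young and 93.1 CPM in FMT-aged, a ratio of -0.54 (-0.73 to -0.35). The accessory subunits Ndufb7 and Ndufb8 had ratios of -0.41 (-0.54 to -0.29) and -0.39 (-0.51 to -0.27). Ndufa3, an accessory subunit too, went the other way, with 156 CPM in FMT-young and 130 CPM in FMT-aged (0.26, 0.13 to 0.40). At the finer clustering, where 193 FMT-young and 169 FMT-aged cells were HSC-like, the ratio of Ndufs3 was 0.03 and that of the nuclear sum -0.05.

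Counts of lower genes by complex are read against the median of all genes given above, which was below 0 as well. The 4 complex II genes were all lower in FMT-young, with Sdha at 94.2 CPM in FMT-young and 124 CPM in FMT-aged (-0.39, -0.55 to -0.24), Sdhd at -0.30, Sdhc at -0.28 and Sdhb at -0.17 (-0.35 to 0.01). The 8 nuclear complex III genes were all lower and 0 past the fold limit, with a sum at -0.14. In complex IV, 13 of 13 nuclear genes with enough UMIs were lower, 1 of them past the fold limit (Cox6a2, -0.62, -1.05 to -0.20), and the sum had a ratio of -0.15. In the ATP synthase, 14 of 16 were lower. The stalk subunit Atp5o had 163 CPM in FMT-young and 216 CPM in FMT-aged (-0.41, -0.53 to -0.29). Atp5k, a small membrane subunit, and Atp5e, a small subunit of the central stalk, were higher, with 186 CPM in FMT-young and 161 CPM in FMT-aged for Atp5k (0.21, 0.09 to 0.33) and 621 CPM in FMT-young and 564 CPM in FMT-aged for Atp5e (0.14, 0.07 to 0.20). With Ndufa3 these were the only nuclear members whose interval in HSC-like cells lay above 0.

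**Figure D4:**
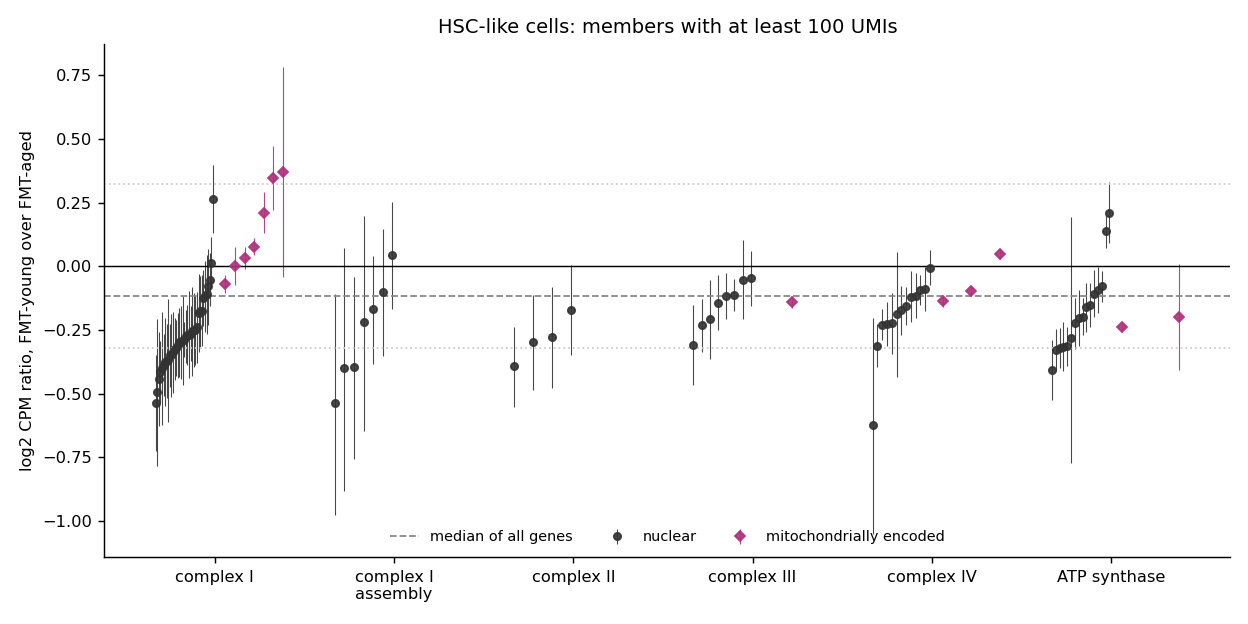
Log2 CPM ratio of FMT-young over FMT-aged in HSC-like cells (y axis) for each member with at least 100 UMIs, by complex (x axis). Dots are nuclear and diamonds mitochondrially encoded members, bars are 95% counting intervals, the dashed line is the median of all genes and the dotted lines mark the fold limit of 0.32. Nuclear members lie mostly below 0, with Ndufa3, Atp5k and Atp5e above it.

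The mitochondrially encoded sum in HSC-like cells was 38060 CPM in FMT-young and 40521 CPM in FMT-aged, a log2 ratio of -0.09 (-0.10 to -0.08), close to the median of all genes. Its members did not move as one, with 7 higher and 6 lower in FMT-young. mt-Nd4l had 177 CPM in FMT-young and 139 CPM in FMT-aged (0.35, 0.22 to 0.47), mt-Nd6 had 17.7 CPM in FMT-young and 13.7 CPM in FMT-aged (0.37, -0.04 to 0.78), and mt-Nd3 had 408 CPM in FMT-young and 353 CPM in FMT-aged (0.21, 0.13 to 0.29). These 3 encode complex I subunits of the membrane arm. mt-Nd4 was at 0.08, mt-Co1 at 0.05, mt-Nd2 at 0.03 and mt-Nd5 at 0.00. mt-Nd1 was at -0.07, mt-Co3 at -0.10, mt-Co2 at -0.14 and mt-Cytb at -0.14. The ATP synthase members mt-Atp8 (-0.20, -0.41 to 0.01) and mt-Atp6 (-0.24, -0.26 to -0.22) were lowest. With TMM scaling the sum was at 0.01.

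Several single members went the same way in most classes. The nuclear ones named here were picked by their HSC-like ratios, and that class is among those counted. mt-Nd4l was higher in FMT-young in 17 of 17 classes, with a median ratio of 0.39, mt-Nd6 in 8 of the 8 classes with enough UMIs (median 0.46) and mt-Nd3 in 16 of 17 (0.16). mt-Atp6 was lower in 15 of 17 classes, with a median of -0.17, and mt-Co1 was higher in 13 of 17. Members less far from 0 in HSC-like cells did so too, with mt-Nd5 higher in 14 of 17. mt-Co2 and mt-Cytb were each lower in 14 of 17. Among nuclear members Ndufb7 was lower in 17 of 17 classes (median -0.22) and Ndufs3 in 13 of 15 (-0.29), while Ndufa3 and Atp5e were each higher in 15 of 17, with medians of 0.18 and 0.14. All classes of a group come from 1 library, so these counts are not repeats of the comparison.

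Counts of some mitochondrial genes cannot be fully separated, because neighbouring genes on the same strand overlap. mt-Atp8 and mt-Atp6 share 43 bases, mt-Atp6 and mt-Co3 1 base, and mt-Nd4l and mt-Nd4 7 bases. mt-Nd5 and mt-Nd6 overlap by 14 bases too, but lie on opposite strands and so are not such a case. Some overlapping pairs on the same strand are also known to be carried on 1 transcript. mt-Atp8 had 302 UMIs in FMT-young and 540 in FMT-aged HSC-like cells, where mt-Atp6 had 36272 and 66752 UMIs in FMT-young and FMT-aged. The whole of mt-Atp8, 204 bases in GENCODE vM21 (GRCm38), is shown with the bases it shares with mt-Atp6 in capitals.
mt-Atp8 (chrM:7766-7969, + strand): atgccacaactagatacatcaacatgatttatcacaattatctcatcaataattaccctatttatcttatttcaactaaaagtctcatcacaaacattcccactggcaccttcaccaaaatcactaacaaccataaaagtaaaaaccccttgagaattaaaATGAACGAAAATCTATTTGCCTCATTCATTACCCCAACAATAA
The share of mt-Atp6 UMIs that end in this stretch cannot be read from the counts.

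Beyond the members, most genes of the lists around them were lower in FMT-young in HSC-like cells, as were most genes of all, whose median was -0.12 with 18.7% lower past the fold limit. The list medians are read against that value, and several lie close to it. Counts of lower genes have no share of all lower genes beside them here and are descriptions only. Of 77 mitochondrial ribosomal protein genes 72 were lower, 27 of them past the fold limit, with a median of -0.27 and with Mrps18c at -0.54 and Mrpl51 at -0.51. Of 20 tricarboxylic acid cycle and pyruvate dehydrogenase genes 18 were lower (median -0.25), with the succinate-CoA ligase subunit Suclg1 at -0.41 and Mdh2, which makes oxaloacetate, at -0.31. Of 38 further assembly factors 31 were lower (median -0.17), with Atpaf2 at -0.80 and Uqcc2 at -0.33. Of 23 genes of electron carriers, nucleotide exchange and outer membrane channels 20 were lower (median -0.20). The electron transfer flavoprotein genes Etfa and Etfb were at -0.61 and -0.55, and Coq10b, a coenzyme Q binding protein gene, at 0.60.

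Regulators of both genomes were nearer the background. Of 20 genes that maintain, transcribe or regulate them, 14 were lower in FMT-young, with a median of -0.13. Tfam, which packs mitochondrial DNA and starts its transcription, had 41.6 CPM in FMT-young and 54.1 CPM in FMT-aged (-0.38, -0.62 to -0.14). Lrpprc, which stabilises mitochondrial messenger RNA, was at -0.37 (-0.69 to -0.05). Polg2, the accessory subunit of the mitochondrial DNA polymerase, had 79.8 CPM in FMT-young and 24.5 CPM in FMT-aged (1.70, 1.46 to 1.95). In the mitochondrial stress list 10 of 14 were lower (median -0.23), with Phgdh at -0.40 and Shmt2 at -0.41, but Atf4 and Ddit3, transcription factors of the integrated stress response, were at 0.61 and 0.88.

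Other classes showed the nuclear difference unevenly. GMP-like cells had a nuclear ratio of -0.14 (-0.15 to -0.14), which was -0.09 with TMM scaling. Past the fold limit 5 were lower and 0 higher, beside 6.33% of all genes lower and 5.67% higher. Monocyte progenitor-like cells had a ratio of -0.11, with 1 of 88 past the limit lower and 0 higher, beside 5.09% and 5.42% of all genes. Monocyte-like cells had -0.07, with 2 of 81 lower and 2 higher, beside 10.9% and 8.45%. These myeloid classes thus had small ratios of 1 sign and few members past the limit.

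Basophil, eosinophil or mast-like cells had the most negative nuclear ratio of the named classes, -0.28 (-0.30 to -0.27), with 36 of 82 members past the limit lower and 0 higher, beside 23.2% and 8.61% of all genes. Their mitochondrially encoded ratio was 0.12 (0.11 to 0.13). Immunoglobulin genes made up 2.0% of their UMIs in FMT-young and 0.0652% in FMT-aged, and the estimate of free RNA in them was 22.3% in FMT-young and 1.40% in FMT-aged. With that estimate subtracted the nuclear ratio was -0.30 and the mitochondrially encoded ratio -0.60, so only the nuclear ratio kept its sign. Mature B-like cells had a nuclear ratio of -0.25, with 25 of 78 members lower and 1 higher, beside 23.9% and 16.2% of all genes. They are 2 clusters in unequal parts, 1 of 125 FMT-young and 315 FMT-aged cells with a ratio of -0.14, and 1 led by Vpreb3 and Ebf1, of 194 FMT-young and 186 FMT-aged cells, with -0.45. Plasma-like cells had -0.17, with 14 of 83 lower and 3 higher, beside 25.6% and 9.9%, and 0.12 with each library clustered on its own. The T, NK or innate lymphoid-like class had -0.09, with 3 of 80 lower and 1 higher, beside 17% and 5.68%.

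In the remaining named classes the nuclear ratio lay nearer to 0. It was 0.01 in conventional dendritic-like cells, with 1 of 83 members lower and 3 higher, beside 9.14% and 19.4% of all genes. It was -0.01 (-0.03 to 0.01) in neutrophil-like cells, with 1 of 72 lower and 3 higher, beside 12.1% and 9.47%. It was -0.00 (-0.02 to 0.02) in neutrophil progenitor-like cells, with 1 of 78 lower and 0 higher, beside 10.1% and 9.85%. The plasmacytoid dendritic-like class, with only 50 cells in FMT-aged, had -0.06, with 11 of 65 lower and 3 higher, beside 15.7% and 14.4%. The macrophage-like class had 0.04 (-0.01 to 0.10), with 4 of 56 lower and 10 higher, beside 23% and 20.1%. None of these 5 classes had a share of lower members far above that of all genes.

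The unnamed clusters are called by their leading genes. The Mdga1 and Cpa3 cluster had a nuclear ratio of -0.17, with 11 of 84 members lower and 0 higher, beside 8.8% and 8.57% of all genes. The Fcnb and Ncam1 cluster had -0.21, with 21 of 80 lower and 1 higher, beside 31.3% and 9.86%. The Fcnb and Vcam1 cluster (-0.09) had 0 of 85 past the limit either way, beside 7.57% lower and 5.72% higher, and the Dntt and Pimreg cluster (-0.06) had 2 of 86 lower and 1 higher, beside 9.6% and 5.16%. Over all kept cells the nuclear ratio was -0.17, with 7 of 89 lower and 3 higher, beside 14.4% and 6.65%. Differences between classes in the ratio were not tested.

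Leading members differed by class. Ndufa9, a complex I subunit, led the lower members in GMP-like (-0.40), monocyte progenitor-like (-0.40) and monocyte-like cells (-0.53). Ndufab1, the mitochondrial acyl carrier protein, led them in mature B-like cells, with 66.7 CPM in FMT-young and 123 CPM in FMT-aged (-0.88, -1.25 to -0.52). Ndufs3 led them in plasma-like cells (-0.88), Ndufs6 in neutrophil progenitor-like cells (-0.31) and Atp5h in neutrophil-like cells (-0.21). Ndufb9 led them in plasmacytoid dendritic-like cells (-0.63), Ndufb7 in T, NK or innate lymphoid-like cells (-0.27) and Cox7a2l in conventional dendritic-like (-0.28) and macrophage-like cells (-0.56). On the higher side Ndufa3 led in 4 named classes besides HSC-like cells, with 0.22 in GMP-like, 0.24 in monocyte progenitor-like, 0.33 in neutrophil-like and 0.22 in T, NK or innate lymphoid-like cells.

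Most members were expressed in every class, and a few stood out in 1 or 2 of them. Among nuclear members with at least 50 CPM in some class, Cox6a2 had the widest range over classes on the log2(CPM + 1) scale, 10.4. It had 1506 CPM in FMT-young and 1571 CPM in FMT-aged plasmacytoid dendritic-like cells, and below 1 CPM in neutrophil-like and basophil, eosinophil or mast-like cells of both libraries. In plasmacytoid dendritic-like cells it made up 85.6% (FMT-young) and 83.1% (FMT-aged) of Cox6a UMIs, the rest being Cox6a1. Cox6a2 is known in mice as a marker of these cells, but it was kept out of the clustering and of the marker list used here. It was 21.9% of Cox6a UMIs in FMT-young and 9.72% in FMT-aged conventional dendritic-like cells, and 17.2% and 13.9% in FMT-young and FMT-aged plasma-like cells. In HSC-like cells it was 7.21% in FMT-young and 9.28% in FMT-aged, and in GMP-like cells 0.367% and 0.572% in FMT-young and FMT-aged.

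**Figure D5:**
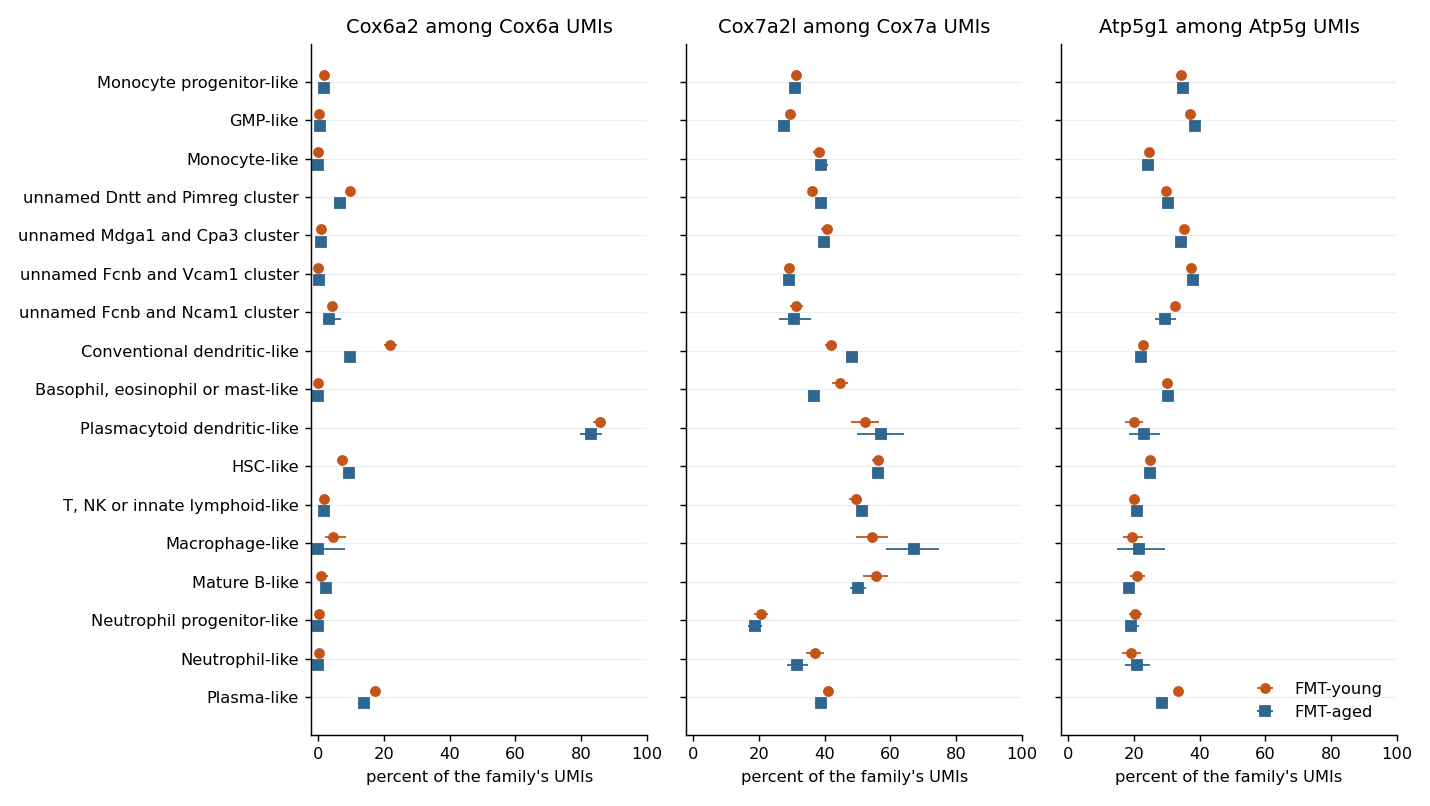
Share of Cox6a2 among Cox6a UMIs, of Cox7a2l among Cox7a UMIs and of Atp5g1 among Atp5g UMIs (x axes, percent) in each class, for FMT-young (circles, above) and FMT-aged (squares, below), with 95% exact binomial intervals. Cox6a2 stands out in plasmacytoid dendritic-like cells, Cox7a2l is above 50% in both libraries in HSC-like, mature B-like, plasmacytoid dendritic-like and macrophage-like cells, and Atp5g1 is highest in GMP-like cells and in the Fcnb and Vcam1 cluster.

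Other paralogs had different shares in HSC-like and GMP-like cells. Cox7a2l made up 56.3% of Cox7a UMIs in HSC-like cells of both libraries, against 29.6% in FMT-young and 27.8% in FMT-aged GMP-like cells, where Cox7a2 prevailed. It was lowest in neutrophil progenitor-like cells, at 20.6% in FMT-young and 18.9% in FMT-aged. Cox7a1, the muscle form, had 164 UMIs in FMT-young and 163 in FMT-aged over all kept cells. The 3 Atp5g genes encode the same mature subunit c of the rotor ring. Atp5g1 was 24.9% of their UMIs in HSC-like cells of both libraries, against 37.2% in FMT-young and 38.7% in FMT-aged GMP-like cells. Atp5g2 was 57.7% in FMT-young and 56.6% in FMT-aged HSC-like cells, against 44.5% and 41.3% in FMT-young and FMT-aged GMP-like cells. Atp5g3 made up the rest.

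The remaining paralogs differed between classes, and some had few UMIs in any. Cox6b2, known from testis, made up 19.6% (FMT-young) and 15.8% (FMT-aged) of Cox6b UMIs in basophil, eosinophil or mast-like cells. Its share in HSC-like cells was 11.3% in FMT-young and 12.0% in FMT-aged. It was not confined to these classes. Neutrophil progenitor-like cells had 119 UMIs of it in FMT-young and 87 in FMT-aged, and all kept cells had 7229 in FMT-young and 7653 in FMT-aged. In T, NK or innate lymphoid-like cells Cox6b2 had 3 UMIs in FMT-young and 5 in FMT-aged, and in macrophage-like cells 0 in both. Cox4i2, the low-oxygen form of Cox4, had 290 UMIs in FMT-young and 39 in FMT-aged plasma-like cells (2.21, 1.73 to 2.73), where different clusters make up the class in each library. Over all kept cells it was 0.489% of Cox4i UMIs in FMT-young and 0.290% in FMT-aged. Ndufa4l2 had 65 UMIs in FMT-young and 42 in FMT-aged, of which 60 and 41 were in plasma-like cells. Cox8c had 2 UMIs in FMT-young and 0 in FMT-aged, Cox7b2 had 0 in FMT-young and 2 in FMT-aged, and Cox8b had 0 in both. Of 2 rows named Atp5o, 1 had 0 UMIs in both libraries.

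The next widest ranges after Cox6a2 and Cox6b2 belonged to genes at their lowest in neutrophil-like cells. The complex I assembly factors Ndufaf4 and Ndufaf2 had ranges of 4.48 and 4.35, Atp5g1 4.16, Atp5g2 3.56, Ndufa12 3.52 and Ndufab1 3.39. The narrowest ranges were 1.17 for Ndufs5, 1.18 for Ndufa13 and 1.18 for Ndufa1, all complex I subunits. Ndufaf4 averaged 72.8 CPM in the unnamed cluster led by Mdga1 and Cpa3 and 2.33 CPM in neutrophil-like cells, whose cells had medians of 4346 UMIs in FMT-young and 3798 in FMT-aged. Ndufs5 averaged 219 CPM in GMP-like cells and 96.6 CPM in neutrophil-like cells.

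Outside the members, the genes most like the nuclear sum over 34 points, 17 classes in each of 2 libraries, were Minos1, a gene of the inner membrane organising complex (Pearson r 0.979), Sf3b5 (0.968), Eif3k (0.961), Slc25a5, an adenine nucleotide carrier (0.959), and Usmg5, a small ATP synthase protein gene (0.958). Among those most like the mitochondrially encoded sum were Rps27 (0.918), Prpf38b (0.895), Rpl30 (0.894) and Snrnp70 (0.850). Both rankings covered the 456 genes with at least 50 CPM in every class. The points share libraries and depth, and likeness is given as a description.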

How the data were processed

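Marrow of 2 groups of mice was read as 1 droplet library each (10x 3' kit). The deposited files hold whole-number UMI counts per gene and barcode, made with Cell Ranger 3.1.0 per the file headers and with the build mm10 per the submitters' processing notes. The gene and barcode lists hold names only. Nothing in the counts was normalized by the authors as far as the files show. Every listed barcode was deposited, so cells were called here, with the limits given in the report. Doublet scores came from simulated pairs of cells, and the top-scoring cells were removed at 0.8% of cells for each 1000 called (9.55% in FMT-young and 9.08% in FMT-aged).

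Both libraries were clustered together with the Leiden method (leidenalg 0.10.2, igraph 0.11.9, resolution 1) on 40 principal components (scikit-learn 1.9.0) of 2000 variable genes, without the members. Clusters were named from fixed marker lists when at least 3 markers passed, and classes with under 50 cells in a library were left out. UMIs were summed per class and library and scaled to CPM. Ratios are of CPM, with exact conditional binomial intervals (95%, scipy 1.17.1), single levels have exact Poisson intervals, and shares within a gene family have exact binomial (Clopper-Pearson) intervals. On counts drawn with Poisson error alone from the pooled HSC-like profile, 95.5% of the intervals over 9076 genes held the true value. Such draws check the calculation only, since they hold no variation between cells, mice or libraries. TMM factors came from edgeR 4.0.16, and no model was fitted, since each group has 1 library. Counts past the fold limit need at least 100 UMIs over the groups compared. Free RNA was estimated from barcodes with under 100 UMIs.

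Named genes were the 5 nuclear members with the interval bound farthest from 0 in each direction in HSC-like cells, all mitochondrially encoded members, the leading member of each other class in each direction, the 8 widest and 3 narrowest ranges over classes, the paralog families, the Sdh genes, the 5 most alike genes and the leading genes of each list. Only 3 nuclear members had a bound above 0 in HSC-like cells. Genes named beyond these, among them those of the HSC-like against GMP-like comparison, were chosen after their values were seen. A few genes that this rule picks are not reported here. The members and lists were chosen with earlier results of these data known. Alternatives tried were other limits on mt- UMIs and on UMIs, no doublet removal, a finer clustering, clustering with the members or for each library, other scalings, subtraction of free RNA, means over cells, other limits on fold and UMIs, and a common range of depth. Sequences came from RefSeq (GRCm38.p6) and GENCODE vM21. No sample column was left unused.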

Additional observations from a re-analysis of the deposited data

Results flagged for a closer look

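All 106 members were searched over the named classes. Some had ratios of opposite sign in different classes, each past the fold limit and with an interval that excluded 0. The largest ratio in each direction is given. These differences between classes were not tested, since each group has 1 library. Cox6a2 had a log2 ratio of FMT-young over FMT-aged of 1.52 in conventional dendritic-like cells and -0.72 in GMP-like cells. Ndufa12, a complex I subunit, was at 0.69 (0.07 to 1.33) in neutrophil-like cells, from only 72 UMIs in FMT-young and 33 in FMT-aged. In mature B-like cells Ndufa12 was at -0.67. Atp5g2 was at 0.54 (0.18 to 0.92) in macrophage-like cells, from 392 UMIs in FMT-young and 74 in FMT-aged, and at -0.58 in plasma-like cells. Uqcrfs1, the iron-sulphur protein of complex III, was at 0.44 in neutrophil-like cells and -0.33 in basophil, eosinophil or mast-like cells. Ndufa8, a complex I subunit, was at 0.38 in plasma-like cells and -0.48 in basophil, eosinophil or mast-like cells. Plasma-like cells came from different clusters in each library, and the estimate of free RNA in basophil, eosinophil or mast-like cells was 22.3% in FMT-young and 1.40% in FMT-aged.

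Barcodes outside the cell limits carried nuclear members too. In barcodes with over 20% and up to 50% mt- UMIs, nuclear members were 0.765% of UMIs in FMT-young (1066 barcodes) and 0.773% in FMT-aged (1483 barcodes). In barcodes with over 2% and up to 3% mt- UMIs they were 2.42% in FMT-young and 2.71% in FMT-aged. A larger mt- share lowers the nuclear share by arithmetic. Of UMIs outside mt- genes, nuclear members were 1.13% in FMT-young and 1.18% in FMT-aged at over 20% and up to 50%, and 2.48% in FMT-young and 2.78% in FMT-aged at over 2% and up to 3%.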

How the results depend on the processing

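No paired analysis was possible because each group has 1 library, and for the same reason no replicate could be left out. The values below are the nuclear and the mitochondrially encoded sum in HSC-like cells (log2, FMT-young over FMT-aged), the count of nuclear members past the fold limit, the nuclear and the mitochondrially encoded sum in HSC-like over GMP-like cells (log2, mean of both libraries), and the spread of the nuclear sum (log2, highest over lowest class). As reported they were -0.18, -0.09, 20, -0.62, 0.50 and 1.82. The cause of the moves was not tested.

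With a limit of 20% mt- UMIs the sums within HSC-like cells were at -0.15 and -0.16, those over GMP-like cells at -0.67 and 0.53, and the spread at 1.84. With a limit of 5% the mitochondrially encoded sum was at -0.050, the sums over GMP-like cells at -0.60 and 0.43 and the spread at 1.83. Without doublet removal the sums over GMP-like cells were at -0.64 and 0.46 and the spread at 1.61. At resolution 2.0 the sums in HSC-like cells were at -0.046 and -0.12, the count was 8, the sums over GMP-like cells were at -0.93 and 0.57, the spread was 1.68, and Ndufs3 changed sign to 0.034. With members among the clustering genes the nuclear sum over GMP-like cells was at -0.61 and the spread at 1.69. With each library clustered on its own the sums were at -0.29 and -0.068, the count was 43, the sums over GMP-like cells were at -0.67 and 0.53, and the spread was 1.66. Outside immunoglobulin and mitochondrially encoded genes the sums over GMP-like cells were at -0.61 and 0.51 and the spread at 1.66. With TMM scaling the sums were at -0.087 and 0.0077, the count was 6, the sums over GMP-like cells were at -1.07 and 0.048, and the spread was 0.51. With free RNA subtracted the sums over GMP-like cells were at -0.64 and 0.66 and the spread at 1.93. As means over cells the mitochondrially encoded sum was at -0.14, the sums over GMP-like cells at -0.71 and 0.57 and the spread at 1.77. At 1.5-fold the count was 1, by the construction of the limit.

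Alternatives chosen after seeing the data were a limit to a common range of depth and the removal of a shallow GMP-like cluster. In cells of 5000 to 15000 UMIs the sums were at -0.16 and -0.13, the nuclear sum over GMP-like cells was at -0.57, and the mitochondrially encoded sum changed sign to -0.050. Without the shallow cluster that contrast was at 0.49. The nuclear sums kept their sign in all these settings. Of 68 other values recomputed, 38 kept their sign in every alternative, as did 8 of the 9 that were past the fold limit. Depth limits single members most in macrophage-like and plasmacytoid dendritic-like cells, where 56 and 65 nuclear members reached 100 UMIs.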

Other observations

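The members most and least like the nuclear sum over the 34 points, 17 classes in each library, were spread over the complexes. Atp5j2, an ATP synthase subunit gene (Pearson r 0.981), Cox7b (0.972) and Ndufb10 (0.970) were most like it. mt-Nd2 (0.228), mt-Cytb (0.301) and mt-Nd5 (0.392) were least like it. Against the mitochondrially encoded sum, mt-Co3 was at 0.992 and the nuclear complex I gene Ndufv3 at -0.31. These values describe members that also enter the sums.

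Within HSC-like cells, the Spearman correlation of transcript length with the FMT-young over FMT-aged ratio was -0.40 over 85 nuclear members and 0.16 over 8795 other genes. Other genes had medians of 0.03 up to 500 bases, -0.13 from there up to 1000, -0.17 up to 2000 and -0.11 above 2000, beside -0.11, -0.20, -0.29 and -0.33 for members. Both groups thus had lower medians with length up to 2000 bases, and they parted above it. Length is that of the longest annotated coding transcript. The member medians rest on only 5 genes up to 500 bases and 11 above 2000. In GMP-like cells the correlation was -0.37 over 86 nuclear members and 0.21 over 10243 other genes. These are correlations across genes of 1 pair of libraries, and genes are not independent replicates.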
